A study of Mus musculus with 8 samples.

Results

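Tumour necrosis factor (TNF) signals through a small set of proteins that assemble on its receptor, and 10 genes of that pathway are described here: Tradd, Ripk1, Fadd, Traf2, Casp8, Tnfrsf1a, Birc2, Birc3, Nfkbia and Rela. They were found by name, and all 10 were among the 17597 genes of the deposited table, which also holds 1097 transposable element subfamilies. The set was chosen by values of the authors' own comparison of treated with untreated cells, a comparison that is not used here. What follows gives the level of each gene as the authors' mean over all libraries, set beside the sequence features of its transcript.

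The cells were mouse embryonic stem cells of a Cast x 129S cross grown on inactivated fibroblast feeders. In every library the METTL3 protein carried the FKBP12 F36V degron tag, which lets dTAG-13 remove it, and a TetOn promoter stood in place of the promoter of one endogenous Xist allele. The labels name the 129S allele, whereas the study's text places the degron clones in cells inducible from the Cast X chromosome, and this difference could not be settled. No doxycycline was given in any group. Total RNA came from 8 libraries: 4 from cells given dTAG-13 for 26 hours and 4 from cells without it, each condition holding clones C3 and H5 with 2 replicates. Each clone is a single derived line of the same parent cells. METTL3 is the enzyme that places N6-methyladenosine (m6A), a methyl mark on adenosines, in messenger and other RNAs, and the series was designed to find genes that respond when it is removed acutely. The degron acts on the protein, and Mettl3 RNA had an authors' mean count of 684. The level described here averages both treatments, so the difference between them was not analysed here, and neither was the spread between libraries. No value below has a replicate error.

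When TNF binds its receptor, encoded by Tnfrsf1a, the adaptor TRADD and the kinase RIPK1 are recruited to the receptor's death domain. TRAF2 then brings in the ubiquitin ligases cIAP1 and cIAP2, encoded by Birc2 and Birc3, whose ubiquitin chains lead to activation of the transcription factor NF-κB, of which Rela encodes a subunit and Nfkbia an inhibitor. A second complex, in which FADD recruits the protease caspase-8 (Casp8), can instead lead to cell death. Many cell types meet TNF without dying because the NF-κB arm induces inhibitors of that second complex.

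The unit throughout is the mean count: reads per gene divided by a size factor for each library, averaged over the libraries by the authors. Levels of different genes were compared only per kb of transcript, using for each gene the transcript with the longest coding sequence in the GENCODE annotation of GRCm38, the build of mm10. The background is the 13456 genes with an authors' mean count of at least 10 and an annotated length. Their median was 122 per kb, and 80% of them lay between 9.04 and 991. A percentile below is the share of these genes with a lower level per kb.

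Stem cell markers were abundant, and feeder markers ranged from very low to high. All 10 embryonic stem cell markers lay above the background median per kb, with a median of 2305 per kb. The 12 feeder markers had a median of 3.80 per kb and 3 of them lay above the background median: Fn1 (594), Sparc (2234) and Vim (945). Below it, S100a4 (99.7) and Thy1 (66.8) were in the middle of the range, and the remaining 7, among them the collagen genes Col1a1 (3.34), Col1a2 (2.58) and Col3a1 (1.51), were at or under 4.27 per kb. Of 6 blood and immune markers, Adgre1 was not listed, Ptprc had an authors' mean count of 1.56, and Cd68 alone was above the background median per kb (181). The share of the TNF pathway transcripts that came from feeder cells was not tested, and in RNA from whole cultures fewer cells with a transcript and less of it per cell cannot be told apart.

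The level of the 10 genes spanned 31.3-fold per kb, from Tnfrsf1a to Birc2, and 16.2-fold, from Fadd to Birc2, with the median length of each gene's coding transcripts. They had a median of 75.4 per kb, and 3 of them (Birc2, Nfkbia and Ripk1) were above the background median. Together the 10 genes held 0.0279% of the reads of all genes, and Birc2 and Ripk1 supplied 64.3% of that.

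Tnfrsf1a, the receptor, was the lowest of the 10. Its authors' mean count was 33.7, or 15.6 per kb, at the 16.6th percentile of the background. The gene spans chromosome 6, 125349362 to 125362484, on the plus strand. Every member acting below the receptor had more reads per kb than the receptor itself with this choice of transcript. With the median length of its coding transcripts the value of Tnfrsf1a was 38.1 per kb, and Fadd (32.0) and Casp8 (36.6) were then lower.

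The adaptor gene Tradd (chromosome 8, 105258286 to 105264609, minus strand) had an authors' mean count of 127, or 75.3 per kb, at the 39.9th percentile. Fadd, the adaptor of the death-inducing complex, lies on chromosome 7 from 144577318 to 144582463 on the minus strand. It had nearly as many reads as Tradd, with an authors' mean count of 125, but its transcript is longer (3903 bases against 1689). Per kb, Fadd was at 32.0 and Tradd 2.35 times as high.

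Ripk1, the kinase recruited beside TRADD, was the third highest per kb. The gene lies on chromosome 13 from 34002363 to 34037147 on the plus strand. Its authors' mean count was 984, second only to Birc2 among the members, and its 6472-base transcript brought this to 152 per kb, at the 54.4th percentile. Ripk1 was 2.02 times as high per kb as Tradd and 9.72 times as high as the receptor. With the median length of its coding transcripts Ripk1 was at 301 per kb against 75.3 for Tradd, and 7.91 times as high as the receptor. Traf2, which links TRADD to the ubiquitin ligases, had an authors' mean count of 247 and 115 per kb, just under the background median. It lies on chromosome 2 from 25517982 to 25546940 on the minus strand, and with the union of all its exons as length its value was 48.4 per kb.

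The cellular inhibitor of apoptosis genes, a pair of paralogs, differed widely in level. Birc2 (chromosome 9, 7818227 to 7837064) was the highest member, with an authors' mean count of 1630, 489 per kb and the 79.6th percentile. Birc3 (chromosome 9, 7848699 to 7873186), its neighbour on the same strand with 11634 bases between them, had an authors' mean count of 128 and 48.1 per kb, at the 32.3rd percentile. Birc2 was thus 10.2 times as high per kb as Birc3. The ratio was 13.9 with the union of exons and 7.03 with the median coding transcript, so Birc2 stood well above its paralog under each length tried. Little of either transcript was shared with any other gene at the length of a read. Of the 81-base windows of the Birc2 transcript, 1.05% also occurred in transcripts of Birc3 or Gm7019. Of those of the Birc3 transcript, 5.33% also occurred in transcripts of Birc2, Gm43392, Gm43393 or Gm7019. Sharing between the 2 paralogs alone was not counted.

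Casp8, the initiator caspase of the death arm, had an authors' mean count of 68.9 and 37.3 per kb, at the 28.5th percentile. It lies on chromosome 1 from 58795374 to 58847503 on the plus strand. With this choice of transcript Casp8 and Fadd were close in level, Fadd reaching 0.860 of Casp8 per kb. The lengths used were 3903 bases for Fadd and 1849 for Casp8, whose transcript ends 3 bases after its coding sequence. The order of Casp8 and Fadd changed with the length used. With the union of exons Casp8 was at 23.8 per kb, and Fadd was 1.34 times as high.

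At the NF-κB end, the inhibitor was more abundant than the subunit. Nfkbia (chromosome 12, 55489410 to 55492647, minus strand), which encodes IκBα, had an authors' mean count of 518 and 328 per kb, at the 71.7th percentile, second among the members. Rela (chromosome 19, 5637483 to 5648130, plus strand) had an authors' mean count of 205 and 75.5 per kb, at the 40.0th percentile. Nfkbia was 4.34 times as high per kb as Rela, and 2.46 times with the median coding transcript. Rela and Tradd were next to each other in the order, and their values differed by a factor of 1.004. That closeness depended on the length used: Rela was 1.77 times as high as Tradd with the median coding transcript (133 against 75.3 per kb), and slightly lower with the union of exons (66.8 against 68.1). Without the spread between libraries, no order was read between them.

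**Figure D1:**
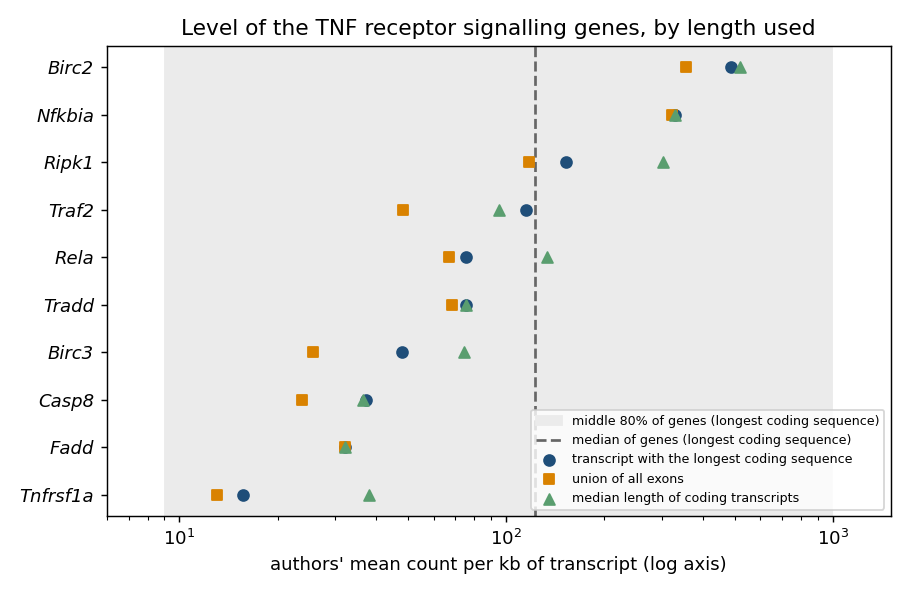
The authors' mean count per kb for each of the 10 genes on a log axis. Each gene has 1 point for each way of measuring transcript length. The dashed line and the grey band give the median (122) and the middle 80% (9.04 to 991) of 13456 genes. Both use the transcript with the longest coding sequence. The other lengths have their own background medians, which are not drawn. Birc2, Nfkbia and Ripk1 sit highest, Tnfrsf1a lowest with 2 of the 3 lengths, and all 10 lie inside the band.

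A wider list of 49 pathway genes put these values in context, and all 49 were listed in the table. Of them 44 had an authors' mean count of at least 10, as did 13590 of the 17597 genes of the table. Of all 49, which include 5 below that mean, 15 were above the background median per kb. Its genes were taken by their role in the pathway.

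Ligand genes had few reads. The median of 6 ligand genes was 1.47 per kb, none lay above the background median, and 4 of them had an authors' mean count under 10. Tnf itself had an authors' mean count of 3.76, or 2.29 per kb. Ltb, which encodes lymphotoxin β, was the highest ligand gene at 55.5 per kb, Tnfsf12 followed at 14.4, and Tnfsf10, which encodes TRAIL, was the lowest at 0.035 with an authors' mean count of 0.17.

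Receptor genes were low as a group, with a median of 27.9 per kb over 8 genes. The exception was Tnfrsf12a, the receptor of TWEAK, at 257 per kb. Tnfrsf21 followed at 111 and Tnfrsf10b, a receptor of TRAIL, at 86.0, while Cd40 was lowest with an authors' mean count of 8.95. The death receptor gene Fas was at 10.3 per kb and Tnfrsf1b, the other TNF receptor, at 29.3.

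Signal transducers below the receptors had higher medians than the receptors, although single genes of these groups overlapped in level. The 8 adaptor and ligase genes had a median of 103 per kb, and 3 of them were above the background median. Xiap (320), Rbck1 (319) and Sharpin (197) were the highest, and Traf1 was the lowest at 8.44. Xiap encodes an inhibitor of caspases, and RBCK1 and SHARPIN are subunits of the linear ubiquitin ligase. Among 11 kinases and their partners the median was 134 per kb and 6 were above the background median. Chuk (370) and Map3k7 (349), the kinases IKKα and TAK1, and Tbk1 (265) were the highest, and Map3k14 the lowest at 12.5. Ripk3, the kinase of necroptosis, was at 134 per kb, whereas its substrate gene Mlkl was at 10.6.

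Inhibitors of the pathway spread widely. Otulin, which encodes the deubiquitinase of linear chains, was at 538 per kb, Tnip1 at 235 and Cflar, which encodes the caspase-8 inhibitor cFLIP, at 101. Tnfaip3, the gene of the NF-κB-induced inhibitor A20, was the lowest of these 6 at 11.6. Of the 4 death effectors, Diablo (387 per kb) and Bid (384), which act at the mitochondrial step of apoptosis, were the highest, Casp9 was at 47.5, and Mlkl was the lowest. The other NF-κB genes had a median of 92.5 per kb over 6 genes. Nfkbib (169), Relb (113) and Nfkb1 (102) led, and Rel was lowest at 3.70.

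**Figure D2:**
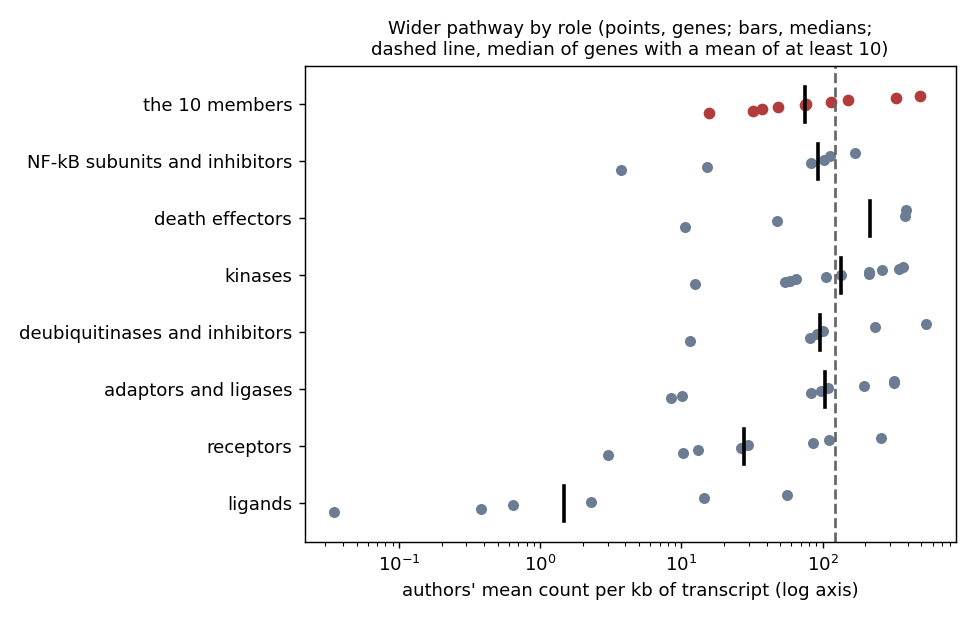
The authors' mean count per kb on a log axis for the 49 genes of the wider list by role (grey) and for the 10 members (red); each point is 1 gene, black bars are medians, and the dashed line is the background median of 122. The medians of ligands (1.47) and receptors (27.9) lie to the left of the median of the kinases (134).

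m6A is written mostly within a short motif whose commonest form is GGACT in DNA letters, and it concentrates in long internal exons and near the start of the last exon. Occurrences of GGACT on the sense strand of each transcript were therefore counted. A match is a description of the letters and not a measured m6A site. The 10 transcripts held 39 occurrences, 17 with their first base in the coding sequence, 20 after it and 2 before it. Of the 39, 25 lay in the last exon, including 7 in Fadd and 6 in Ripk1. The last exon was 90.8% of the Fadd transcript and 71.9% of the Ripk1 transcript. The 25 were not compared with the share of all bases in last exons. In density, 8 of the 10 genes were above the background median of 1.05 per kb. The share of background genes with a lower density was 51.9% to 60.8% for Casp8, Tradd, Birc2 and Ripk1. For Fadd, Nfkbia, Rela and Tnfrsf1a it was 83.1% to 92.8%. By number of occurrences, 5 members were above the background median of 3.

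Tradd had 2 occurrences, both in its last exon (exon 5 of 5) after the coding sequence, which amounted to 1.18 per kb. Nfkbia had 3, of which 2 were coding and in exon 1. These 5 are printed because they contrast an adaptor whose matches are all past the stop codon with an inhibitor whose matches are mostly coding. Capitals mark GGACT, the strand is that of the transcript, and sequence is that of GENCODE transcripts on GRCm38.
Tradd, chr8:105258853-105258877, minus strand: tccatctactGGACTtggagagcat
Tradd, chr8:105258725-105258749, minus strand: tacaaaaagaGGACTtgctgcaaag
Nfkbia, chr12:55492486-55492510, minus strand: ggcacggccaGGACTgggccatgga
Nfkbia, chr12:55492411-55492435, minus strand: acagcggcctGGACTccatgaagga
Nfkbia, chr12:55489884-55489908, minus strand: aaaagaatgtGGACTtgtatatttg

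Tnfrsf1a was the densest member at 2.32 per kb with 5 occurrences, followed by Rela at 2.21 with 6. Both were over the 90th-percentile value of the background, 2.12 per kb. Ripk1 had the most occurrences, 8, of which 6 were in its last exon, and Fadd had 7, all in its last exon. Birc3 had none in 2667 bases, while its paralog Birc2 had 4 in 3331 bases. Casp8 and Traf2 had 2 each, all of them coding. The Casp8 transcript used ends 3 annotated bases after its coding sequence, the length of a stop codon, so no match could lie there. Its length of 1849 bases and its last exon of 133 bases, which held no match, depend on this annotated end.

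Exon structure divided the members differently. The last exon was the longest exon in 7 of the 10 transcripts, and the same share was not counted over the background genes. It was 4652 bases in Ripk1, 71.9% of the transcript, and 3543 bases in Fadd, 90.8% of a transcript with 2 exons. In Tradd it was 1010 bases, 59.8% of a transcript with 5 exons. Birc2 and Birc3 had instead a long second exon, of 1875 and 945 bases, each above the 90th-percentile value of 786 bases for the longest internal exon. Of the 9 members with an internal exon, 8 were above the background median of 218 bases, Rela being the exception at 213. Last exons were mostly short, with 3 members above the background median of 1260.5 bases.

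**Figure D3:**
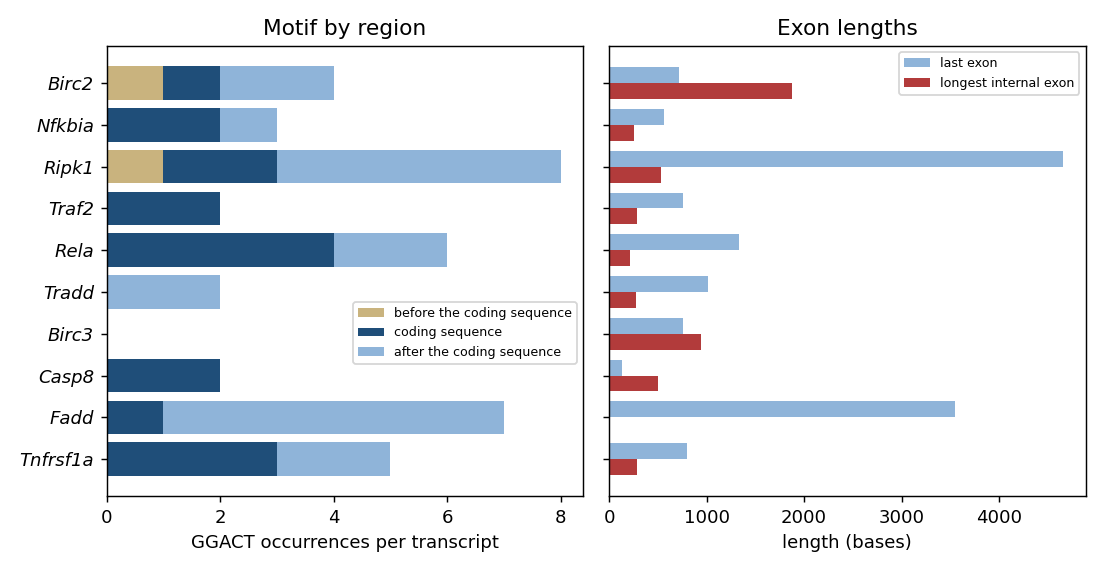
Left, occurrences of GGACT per transcript, coloured by where the first base lies; right, the length in bases of the last exon (blue) and of the longest internal exon (red). Ripk1 has 8 occurrences and Birc3 none, both Tradd occurrences lie after the coding sequence, and Fadd has no internal exon.

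Exons that overlap another annotated gene touched 2 of the 10 values. Ripk1 shares 241 exonic bases, 2.89% of its exons, with Serpinb6a on the opposite strand, whose authors' mean count was 1515. A processed pseudogene on the same strand, Gm17084, covers 511 bases of Ripk1 exons, and 6.74% of the 81-base windows of Ripk1 occur in it. Fadd shares 239 exonic bases, 6.12% of its exons, with its antisense gene Faddos, and 4.63% of its windows occur in other transcripts. Whether the counting used strand is uncertain, so reads from the stretches on opposite strands could not be assigned. Strand would not separate Ripk1 from Gm17084, which lies on the same strand. Neither Gm17084 nor Faddos was among the listed genes. Tradd, Tnfrsf1a, Nfkbia and Rela overlapped no other annotated gene and shared none of their windows with another transcript.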

How the data were processed

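Total RNA-seq libraries were analysed from 1 deposited table of the whole series. Per the study's methods, the authors removed ribosomal reads with bowtie2, aligned the rest with STAR to N-masked mm10, kept unique alignments, dropped PCR duplicates (Picard), and ran TEtranscripts on genes and transposable elements. The deposited signal is the authors' mean, over all libraries, of counts divided by size factors. The label text on extraction describes chromatin RNA and the methods total RNA; total RNA was assumed. The remaining 5 columns hold the authors' comparison of treated with untreated cells (log2 fold change, its error, statistic, p and adjusted p) and were not used. The authors' mean over all features summed to 16292717 reads, the depth per library is unknown, so no interval is given.

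Gene symbols were matched to GENCODE vM21 (GRCm38): 16660 directly, 708 through an older symbol, 29 to several records and 200 to none, so 98.7% had a position. The authors' own annotation came from UCSC, and a length from another annotation moves the level per kb. Lengths, exons and motifs came from the transcript with the longest coding sequence. The calculation of percentiles was tested on simulated data. Python 3.11.15 with pandas 2.3.3 was used. Named genes were the 10 members, and in each role of the wider list the 3 highest and the lowest per kb; Fas, Tnfrsf1b and Ripk3 were added after their values were seen. Members and lists were chosen with earlier results of these data known. The wider list was planned with 2 more genes, which are not reported here. No test was run.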

Additional observations from a re-analysis of the deposited data

How the results depend on the processing

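Counts of genes above the background median depended mostly on which genes formed the background. By authors' mean count, 3 members were above the median of genes with a mean of at least 10, 5 when all genes of the table were used, and 2 with a minimum of 100. Per kb, 3 members were above the median, and 6 with all genes of the table; for the wider list these numbers were 15 and 28. With each of the other transcript lengths 3 members were above the median, and the wider list had 19 with the union of exons and 15 with the median coding transcript. With the longest transcript of each gene 7 members were above the median in GGACT density, against 8, and 8 in the longest internal exon. The first 3 places per kb (Birc2, Nfkbia, Ripk1) were the same under the 3 lengths, while Tradd ranged from place 4 to 6 and Traf2 from 4 to 6. No test of dTAG-13 against untreated cells was run, nor were its alternatives (DESeq2, no filter, leaving out each replicate), since no values per library were used. No paired analysis was possible because the only column used pools all libraries. The depth of single libraries is unknown, so small differences between members could not be resolved.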
